A study of Mus musculus with 14 samples.

Results

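Malat1, Neat1, Kcnq1ot1, Gm26917 and Gm42418 are long noncoding RNAs that stay in the nucleus or come from ribosomal DNA, and they were followed through the count table of the series by their gene symbols. They are 5 of the 55228 symbols in the table. Gm26917 was chosen by its share of counts, which had been seen to differ between the regions, and the others with results of these data known, so the difference of Gm26917 is given here as a description. RNA was sequenced in bulk from mouse tail epidermal cells that carried Lrig1CreER/Rosa-TdTomato, in which a Cre recombinase expressed under the control of Lrig1, which marks progenitors of the upper hair follicle, switches on a red fluorescent reporter. Cells of the 8w pw1 time point, with the treatment given as none, were sorted for Sca1 and then grown for 1 week in keratinocyte complete medium. The Distal memory region gave 6 libraries, and the Ctrl (non-memory) region gave 8. All libraries share genotype, label, sort, culture and time point, so the labels separate the groups by region alone, apart from the sets. The sample descriptions place the libraries in 4 sets, with 2 and 4 distal libraries in sets 1 and 2 and 6 and 2 control libraries in sets 1 and 2; no set holds both regions, so set and region cannot be told apart. The labels do not state whether libraries of a group are from different animals or cultures; the p-values refer to variation among libraries, part or all of which may be technical.

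Malat1 lies in nuclear speckles, the bodies where splicing factors collect, and Neat1 is the scaffold of paraspeckles, which hold RNA-binding proteins and some edited or retained transcripts. Malat1 and the long transcript of Neat1 lack a conventional poly(A) tail: RNase P cuts before a tRNA-like structure, and the new 3′ end is protected by a triple helix in which U-rich stretches embrace an A-rich tract. The short transcript of Neat1 ends at a conventional polyadenylation site. Kcnq1ot1 is a very long RNA transcribed antisense to Kcnq1 from the paternal chromosome, where it silences neighbouring imprinted genes. Gm26917 and Gm42418 are annotated as long noncoding RNAs within sequence related to the ribosomal DNA repeat, so reads from ribosomal RNA and its precursor can align to them. The libraries were made with Smart-seq2, which starts cDNA from oligo-dT primers annealed to runs of A.

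The 3′ ends of Malat1 and Neat1 are shown first because both carry the A-rich tract of the triple helix. Sequences were read from GRCm38 and are given 5′ to 3′ on the strand of the gene. The stretch of Malat1 is chr19:5795982-5796101 on the minus strand, and that of Neat1 is chr19:5824708-5824827 on the minus strand. Capitals mark AAAAAGCAAAA, which belongs to the A-rich tract. In Malat1 further A stand directly before the capitals, and with them form a run of 12 A, the longest in that transcript.
Malat1: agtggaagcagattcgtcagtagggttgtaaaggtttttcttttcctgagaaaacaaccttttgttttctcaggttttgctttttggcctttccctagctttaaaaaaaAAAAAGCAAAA
Neat1: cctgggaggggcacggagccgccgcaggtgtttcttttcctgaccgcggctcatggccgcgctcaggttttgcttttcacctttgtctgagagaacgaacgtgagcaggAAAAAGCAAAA
The motif is the last 11 bases of the annotated Neat1; searched on the strand of the transcript, it stands in the last 400 bases of the longest transcript of 26 of 11482 tested genes, 0.226%. In Neat1 the tract closes the annotated transcript, and in Malat1 it lies within the annotated end. Kcnq1ot1 carries 30 runs of 8 or more A in its 93092 bases, Malat1 has 1 such run in 6983 bases, and Neat1 (20771 bases), Gm26917 (3329 bases) and Gm42418 (1831 bases) have 0. Such a run occurs in the longest transcript of 3827 of 11654 tested genes, 32.8%. The longest run of Kcnq1ot1 holds 41 A and is shown because it lies deep inside the RNA, at chr7:143226915-143227015 on the minus strand, with the run in capitals.
Kcnq1ot1: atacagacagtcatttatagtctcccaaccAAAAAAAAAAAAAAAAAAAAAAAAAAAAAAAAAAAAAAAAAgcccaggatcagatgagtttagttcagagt
The end of Gm26917 (chr17:39846252-39846341, plus strand) and the start of Gm42418 (chr17:39846958-39847047, plus strand) are shown because the 2 genes are neighbours in sequence of a different make-up. Capitals in Gm26917 mark runs of at least 6 G or C. Capitals in Gm42418 mark GTGCCAGCAGCCGCGGTAA, a stretch of the small-subunit ribosomal RNA that is conserved between species.
Gm26917: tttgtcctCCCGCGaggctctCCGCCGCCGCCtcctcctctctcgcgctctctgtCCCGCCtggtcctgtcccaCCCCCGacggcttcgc
Gm42418: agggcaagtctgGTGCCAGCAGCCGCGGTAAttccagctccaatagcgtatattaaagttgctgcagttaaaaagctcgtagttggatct
That stretch of 19 letters was found, on the strand of the transcript, in the longest transcript of 1 of 55341 annotated genes, Gm42418. Gm26917 has a GC content of 69.1% over its longest transcript, against 60.2% in Gm42418, 47.3% in Neat1, 42.5% in Malat1 and 40.3% in Kcnq1ot1.

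All positions are from GRCm38. Malat1 (chr19:5795690-5802672, minus strand) and Neat1 (chr19:5824708-5845478, minus strand) are annotated lincRNAs close to each other on chromosome 19. Kcnq1ot1 (chr7:143203458-143296549, minus strand) is annotated as antisense and lies within Kcnq1, whose exons share 121 of its bases, 0.130%. Gm26917 (chr17:39843013-39846341, plus strand) and Gm42418 (chr17:39846958-39848788, plus strand) are annotated lincRNAs. CT010467.1, a gene of the rRNA biotype on the minus strand, begins 11 bases beyond Gm26917 and covers 1822 of the 1831 exon bases of Gm42418, 99.5%. AY036118, also on the minus strand, covers 923 bases of Gm42418 (50.4%) inside the same interval. Neither the strand setting nor the handling of reads with several possible origins was stated for the counting. The values of Gm26917 and Gm42418 therefore remain uncertain, since ribosomal DNA occurs in many near-identical copies.

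The distal libraries held 2137934 to 4513518 counts and the control libraries 4515646 to 7458872, so no distal library was as deep as any control library. Keratinocyte markers summed to 28387 to 33513 CPM (counts-per-million) in distal libraries and 17509 to 23502 in control libraries, and all 15 of them had a count, which fits the labelled epidermal cells. Markers of other cells were low: fibroblast markers, 9 of 10 with a count, summed to 18.5 to 180 CPM in distal and 5.09 to 268 in control libraries. Immune markers, 5 of 10 with a count, summed to 4.20 to 15.4 CPM in distal and 3.60 to 8.97 in control libraries. Melanocyte markers, 5 of 8 with a count, summed to 14.9 to 39.7 CPM in distal and 14.4 to 46.9 in control libraries, most of it Mitf, with Dct, Sox10 and Kit at 0. Endothelial and Merkel cell markers, 4 of 9 with a count, summed to 4.56 to 18.5 CPM in distal and 3.53 to 10.4 in control libraries, with Cdh5, Krt20, Atoh1, Isl1 and Sox2 at 0, and Cd3e, Cd207 and Itgam were at 0 among the immune markers. Mitochondrial genes took 1.96 to 5.48% of distal and 3.80 to 7.13% of control counts. For the GC slope of a library, each gene's log2 value was taken relative to the gene's mean over all libraries. Per 10 percentage points of GC content, the slope was 0.23 to 0.93 in distal and -0.61 to -0.34 in control libraries, without overlap. Its sign thus compares a library with the others and does not give the base composition of that library by itself.

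Malat1, Neat1 and Kcnq1ot1 took smaller shares of the counts in distal than in control cells, Gm26917 took a larger share, and Gm42418 had 0 counts in every library. The members together took 1.26 to 2.90% of all counts in distal libraries (median 2.30%) and 0.986 to 2.03% in control libraries (median 1.55%), and most of this was Gm26917. By mean CPM, from here on with TMM-scaled totals, Gm26917 ranked 3, Malat1 19, Neat1 27 and Kcnq1ot1 430 among 11757 tested genes. In bulk RNA, fewer cells that express a gene and less of its RNA per cell cannot be told apart.

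**Figure D1:**
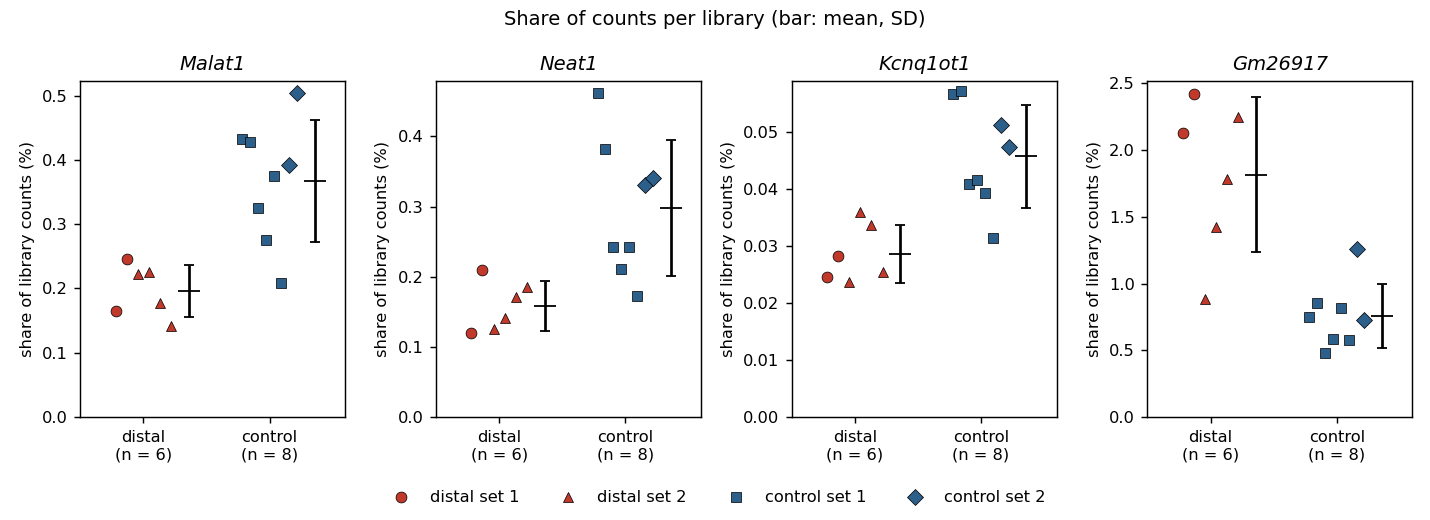
Share of total counts (%) of Malat1, Neat1, Kcnq1ot1 and Gm26917, distal left of control. Each point is a library, its shape the set, and the bars give mean and SD. For Malat1, Neat1 and Kcnq1ot1, control 6 is the only control library below the highest distal library; Gm26917 is higher in 5 of 6 distal libraries than in any control library.

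Malat1, the speckle RNA, took 0.142 to 0.246% of the counts in the 6 distal libraries, with a mean of 0.196 ± 0.0406% (SD). It took 0.208 to 0.504% in the 8 control libraries, with a mean of 0.367 ± 0.0950% (SD). The lowest control library, control 6 at 0.208%, fell inside the distal range, and the other 7 control libraries lay above every distal library. In CPM, Malat1 averaged 1823 ± 463 in distal and 3921 ± 1061 in control libraries (SD, n = 6 and 8 libraries). The log2 fold change, distal minus control, was -1.10 ± 0.21 (SE; adjusted p = 0.000325, edgeR quasi-likelihood test). This is 0.465 times the control level.

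Neat1, the paraspeckle scaffold, took 0.119% of the counts in distal 1, 0.210% in distal 2, 0.126% in distal 3, 0.141% in distal 4, 0.171% in distal 5 and 0.185% in distal 6. In control libraries 1 to 8, its share was 0.462, 0.382, 0.243, 0.211, 0.243, 0.172, 0.331 and 0.341%. Control 6 was again the only control library inside the distal range. On TMM-scaled totals the highest distal library, at 1820 CPM, and the lowest control library, at 1824 CPM, were almost level. The mean was 1452 ± 283 CPM in distal and 3164 ± 987 CPM in control libraries (SD, n = 6 and 8), -1.12 ± 0.21 as log2 fold change (SE; adjusted p by edgeR 0.000292).

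Kcnq1ot1, the imprinted antisense RNA, was less abundant, with 545 to 1574 counts per distal and 1415 to 3175 per control library. Its share was 0.0246, 0.0282, 0.0237, 0.0359, 0.0336 and 0.0255% in distal libraries 1 to 6. It was 0.0566, 0.0572, 0.0409, 0.0415, 0.0393, 0.0313, 0.0513 and 0.0474% in control libraries 1 to 8. Control 6 lay inside the distal range here as well. The mean of 265 ± 59.5 CPM in distal and 486 ± 88.9 CPM in control libraries (SD, n = 6 and 8) gave -0.87 ± 0.16 as log2 fold change (SE; adjusted p by edgeR 0.000337).

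Malat1, Neat1 and Kcnq1ot1 thus all passed the threshold, an adjusted p under 0.05. This is to be read against a background in which 48.3% of the 11757 tested genes passed it, 2853 higher and 2828 lower in distal cells, with a median log2 fold change of -0.16 over all of them. The share that passed was 46.4% with upper-quartile scaling, 45.7% with library totals, 46.3% with a replicate block and 52.4% in DESeq2. The spread between libraries of a region was larger than counting error: the widest 95% Wilson interval reached 3.55% of the value on either side for Malat1, 3.65% for Neat1, 8.40% for Kcnq1ot1 and 1.21% for Gm26917. These intervals cover counting error only. All 3 calls held when any single library was left out, and the fold changes then stayed between -1.19 and -0.92 for Malat1, -1.21 and -0.94 for Neat1, and -0.94 and -0.73 for Kcnq1ot1. With the libraries over 4000000 counts alone, 2 distal and 8 control, Neat1 kept its call (-1.21, adjusted p = 0.0336), and Malat1 (-0.77, adjusted p = 0.106) and Kcnq1ot1 (-0.67, adjusted p = 0.0932) did not.

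Gm26917, the GC-rich transcript beside the ribosomal sequence, took 2.13, 2.42, 0.883, 1.42, 1.78 and 2.25% of the counts in distal libraries 1 to 6. It took 0.753, 0.855, 0.481, 0.586, 0.817, 0.575, 1.26 and 0.724% in control libraries 1 to 8. In 5 of 6 distal libraries the share was above every control library, and distal 3, at 0.883%, was below control 7, at 1.26%. The mean was 1.81 ± 0.580% in distal and 0.756 ± 0.240% in control libraries (SD, n = 6 and 8), or 16377 ± 4262 CPM in distal and 8055 ± 2630 CPM in control libraries. The log2 fold change was 1.02 ± 0.21 (SE), 2.03-fold higher in distal cells; this difference is one of the values for which the gene was chosen, so no test is given. With the libraries over 4000000 counts alone it was 0.56 ± 0.28 (SE).

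Gm42418, which holds the conserved ribosomal stretch printed above, had 0 counts in all 14 libraries. A count of 0 allows up to 3 counts, or 0.665 to 1.40 CPM in distal and 0.402 to 0.664 CPM in control libraries. The genes that overlap it, CT010467.1 and AY036118, also had 0 counts. Across the table, 356 rows are annotated as ribosomal RNA of the nucleus or mitochondria; 32 of them had a count, and together they held 285 counts over all libraries, against 675744 for Gm26917. The mitochondrial ribosomal genes mt-Rnr1 and mt-Rnr2 had 3 and 0 counts. How ribosomal reads were handled before or during counting was not stated.

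Per kilobase of the longest transcript, the members kept a fixed order of level in both regions. Gm26917 was highest, at 4920 ± 1280 CPM per kilobase in distal and 2420 ± 790 in control libraries (SD). Malat1 followed at 261 ± 66.4 in distal and 562 ± 152 in control libraries, and Neat1 at 69.9 ± 13.6 in distal and 152 ± 47.5 in control libraries. Kcnq1ot1 was lowest, at 2.84 ± 0.639 CPM per kilobase in distal and 5.22 ± 0.954 in control libraries. Neat1 is known to have a short and a long transcript that share their start, and the annotation used holds 4 transcripts for it, with a median length of 2017 bases. Counts per gene do not separate them, so its level per kilobase would be higher if most reads came from a short one. Malat1 and Neat1, neighbours in this order, had counts of similar size: 0.770 to 1.77 Malat1 counts per Neat1 count in distal libraries (median 1.28) and 0.937 to 1.54 in control libraries (median 1.26). Gm26917 gave 3.97 to 15.8 counts per Malat1 count in distal libraries and 1.44 to 3.20 in control libraries, with no overlap.

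The fold changes of the members were next set beside the GC content of their transcripts, because the libraries' GC slopes differed between regions. Over 11654 tested genes with a GC value, fold changes followed GC content. These genes were put in 5 classes of equal size by GC content. In the lowest class (28.8 to 44.1% GC) the median log2 fold change was -0.89, and 8 genes rose and 1242 fell. In the highest class (55.4 to 71.9%) the median was 1.09, and 1565 genes rose and 44 fell. Malat1, at a median GC content of 41.0% over its transcripts, and Kcnq1ot1, at 40.3%, had fold changes of -1.10 and -0.87, near the median of their class. Gm26917, at 70.7%, had a fold change of 1.02, near the median of the highest class. The median GC content of that class was 57.6%, so it does not stand for genes as GC-rich as Gm26917.

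Neat1 lay below the lowest decile of its GC class by the median over its transcripts, and above the lowest decile by its longest transcript. Its transcripts have a median GC content of 51.7%, in the class from 51.5 to 55.4%, where the median log2 fold change was 0.50 and the lowest decile -0.52; Neat1 was at -1.12. Its longest transcript has 47.3%, in the class from 44.1 to 47.8%, where the median was -0.57 and the lowest decile -1.23. When each library's trend on GC content and length was removed, 18.9% of 11654 genes passed the threshold. Neat1 was then at -1.27 ± 0.19 (log2, SE; adjusted p = 0.000209 by edgeR), Malat1 -0.28 ± 0.16 (adjusted p = 0.256) and Kcnq1ot1 0.06 ± 0.17 (adjusted p = 0.843). Gm26917 had 0.28 ± 0.19 (SE). Taking GC content and length from the longest transcript instead, Neat1 had -0.52 (adjusted p = 0.0457) and Gm26917 -0.18, so the size of the Neat1 value and the direction of the Gm26917 value depended on which transcripts describe the gene. The call for Neat1 was lost when the removal was limited to libraries over 4000000 counts (-1.29, adjusted p = 0.0852). Whether the GC trend arose in the cells or in library preparation was not tested.

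**Figure D2:**
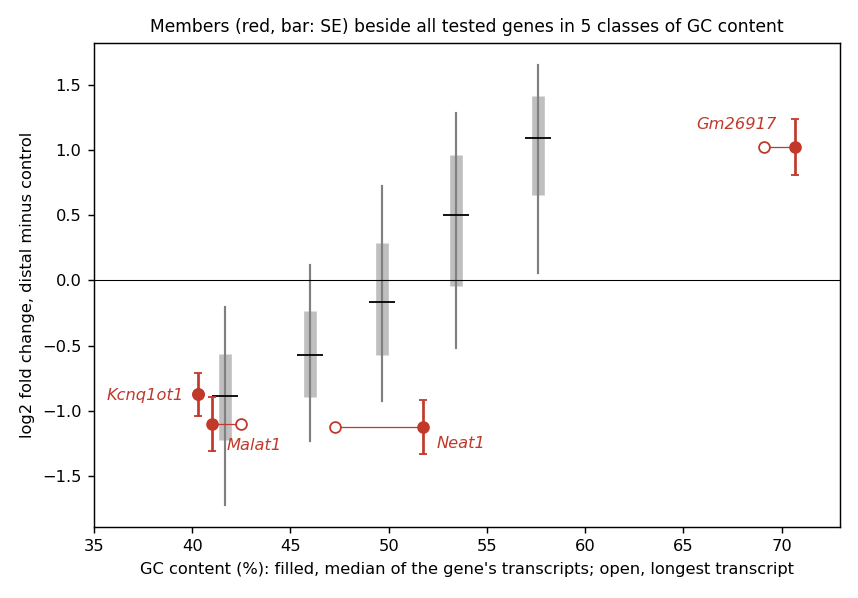
Log2 fold change, distal minus control, against GC content (%). Red points are the members with their SE, filled at the median of the gene's transcripts and open at the longest transcript; grey bars give the quartiles, thin lines the outer deciles and black lines the median of all tested genes in 5 classes of GC content. Neat1, at -1.12, lies below the lowest decile of its class at 51.7% GC and just above that of the class at 47.3%.

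**Figure D3:**
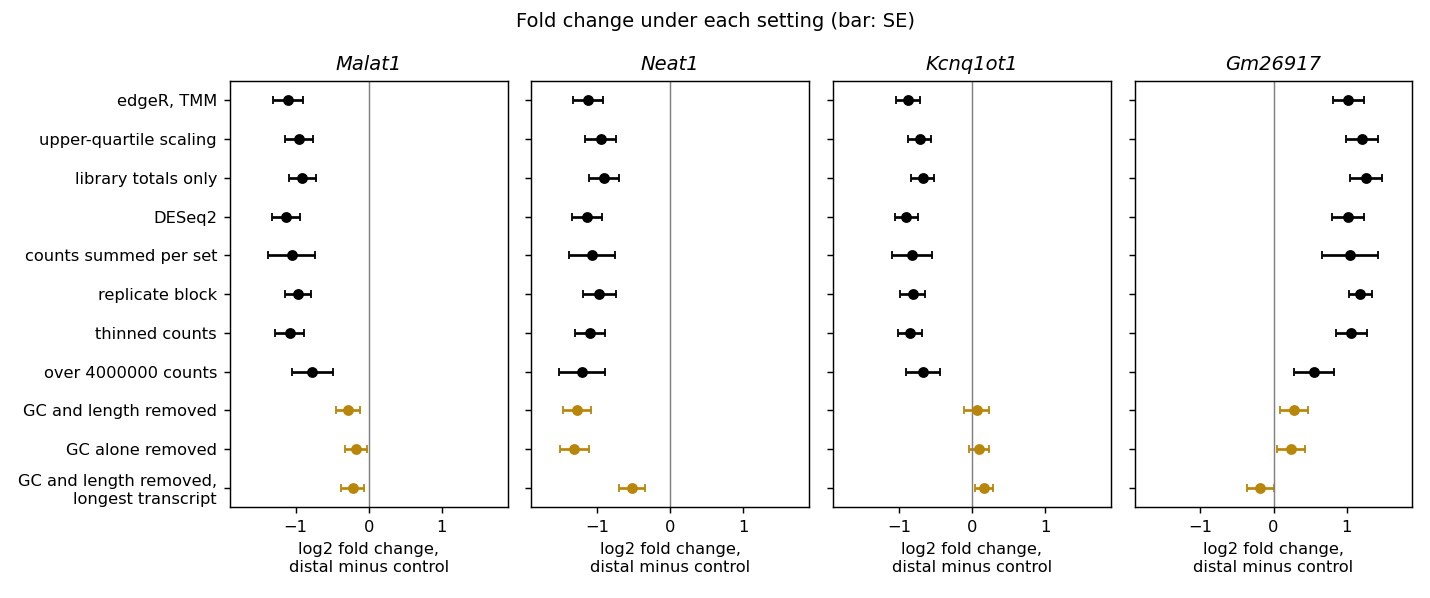
Log2 fold change, distal minus control, of the 4 members with counts under 11 ways of analysing them, with its SE. In the settings that remove the GC trend, drawn in yellow, Malat1 lies between -0.28 and -0.17 and Kcnq1ot1 between 0.06 and 0.16. Neat1 is at -1.27 with GC content and length taken as medians over transcripts, at -1.31 with GC content alone, and at -0.52 with GC content and length of the longest transcript.

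Within a region, the sets were compared to see whether the members also differed between sets that share a label. In distal cells, set 2 minus set 1, the log2 fold change was 0.07 ± 0.31 (SE) for Malat1, 0.06 ± 0.32 for Neat1, 0.33 ± 0.25 for Kcnq1ot1 and -0.40 ± 0.29 for Gm26917, with edgeR adjusted p from 0.776 to 0.979. In control cells it was 0.50 ± 0.28 for Malat1, 0.34 ± 0.30 for Neat1, 0.25 ± 0.23 for Kcnq1ot1 and 0.64 ± 0.27 for Gm26917, with adjusted p from 0.574 to 0.794. None of these passed, which does not show that the sets were alike, since the SE of 0.23 to 0.32 leave room for differences in either direction. By edgeR 0% of all 11757 genes passed in either region, with 921 genes in distal and 969 in control cells at an unadjusted p under 0.05; DESeq2 called 16 of the 2412 genes to which it gave an adjusted p in distal (0.663%) and 40 of 11744 in control cells (0.341%). In CPM, both distal sets averaged below both control sets for Malat1 (1853 in set 2 and 1764 in set 1 of distal, 5018 in set 2 and 3556 in set 1 of control). In the same order of sets, this also held for Neat1 (1472 and 1413 in distal, 3751 and 2968 in control) and Kcnq1ot1 (284 and 226 in distal, 551 and 464 in control). With counts summed per set, which leaves 4 values, Malat1 (-1.05, adjusted p = 0.0240), Neat1 (-1.07, adjusted p = 0.0185) and Kcnq1ot1 (-0.82, adjusted p = 0.0339) still passed in edgeR, beside 30.5% of all genes.

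Among the distal libraries, the share of Gm26917 was highest in the shallowest ones; whether its relation with depth differs from that of the other members was not tested. Its share was 2.25, 2.42 and 2.13% in the 3 shallowest distal libraries, with 2137934, 2389341 and 2414631 counts, and 1.78, 1.42 and 0.883% in those with 3335486, 4381280 and 4513518 counts. On the log2 scale r was -0.90 and Spearman's rho -0.94 over the 6 libraries, and r was -0.88 without distal 3 and distal 4, the libraries farthest from the median total. These are descriptions with no test, because the gene was chosen by its share and the total stands in the denominator of the share. The number of Gm26917 counts varied 1.56-fold between distal libraries, from 39872 to 62242, and the totals 2.11-fold. The GC slope moved with depth too, at 0.90, 0.76 and 0.93 in the 3 shallowest and 0.60, 0.35 and 0.23 in the deeper distal libraries; its part in the relation was not tested. Set 1 of the distal region has 2 libraries and set 2 has 4, too few for a value within sets.

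For Malat1, Neat1 and Kcnq1ot1, none of the 6 relations between share and total passed. In distal libraries r was 0.54 for Malat1, -0.50 for Neat1 and 0.37 for Kcnq1ot1 (n = 6, exact permutation, adjusted p from 0.759 to 0.900, over 8 relations with those of Gm26917). In control libraries r was 0.15 for Malat1, -0.07 for Neat1 and 0.04 for Kcnq1ot1 (n = 8, exact permutation, adjusted p = 0.933 each). The share of Gm26917 had r = -0.09 with the total there. Without control 6, the shallowest control library, r was -0.73 for Malat1, -0.79 for Neat1 and -0.81 for Kcnq1ot1, so the control values near 0 rest on that library.

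**Figure D4:**
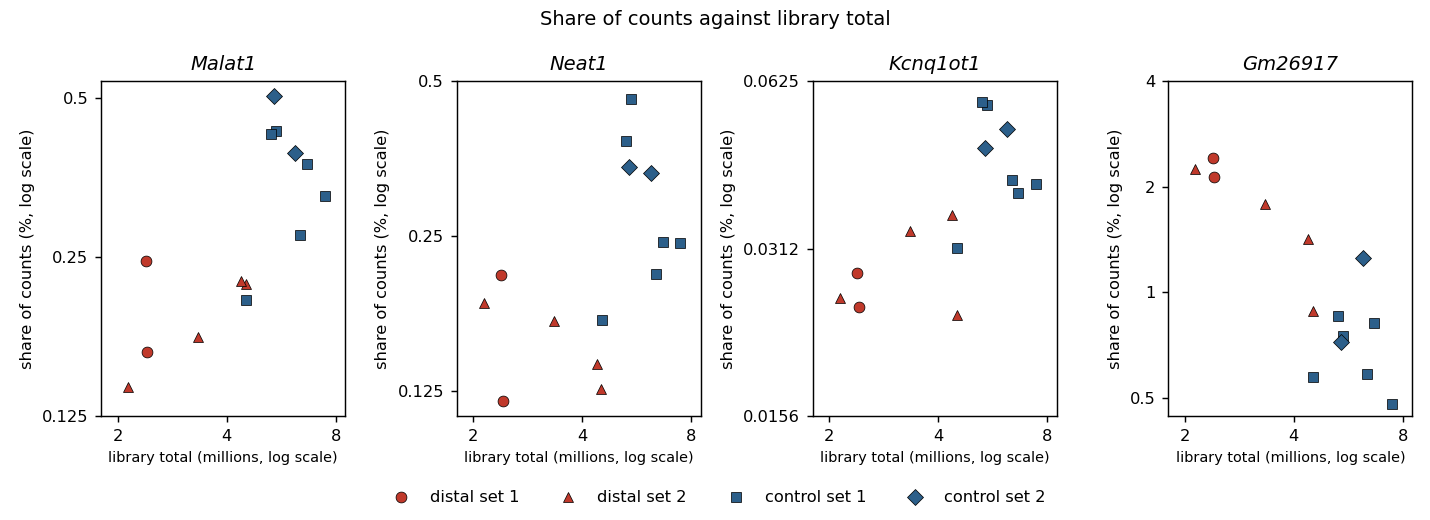
Share of total counts (%) against total counts for each member, both on log axes, with each point a library, its colour the region and its shape the set. Gm26917 is above 2% in the 3 distal libraries with the lowest totals and at 0.883% in the deepest distal library, and control libraries show no such order.

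Among themselves, the shares of Malat1, Neat1 and Kcnq1ot1 moved together across the control libraries. Neat1 and Kcnq1ot1 had r = 0.95 (n = 8, exact permutation p = 0.00119, adjusted 0.0143 over 12 relations) and rho = 0.86 (exact p = 0.0107, adjusted 0.0643). Malat1 and Neat1 had r = 0.88 (exact permutation p = 0.00313, adjusted 0.0188) and rho = 0.93 (exact p = 0.00223, adjusted 0.0268). Malat1 and Kcnq1ot1 had r = 0.82 (exact permutation p = 0.0119, adjusted 0.0474) and rho = 0.74 (exact p = 0.0458, adjusted 0.183). Control 6 was lowest for all 3 RNAs, and control 1, 2 and 8 were among the higher ones. With the 2 libraries farthest from the median left out, r was 0.94, 0.85 and 0.60 in the same order, with adjusted p of 0.142, 0.142 and 0.338 over exact permutations of 6 libraries, so no call held and the third relation weakened most. Within set 1 of the control region, the only set with 6 libraries, r was 0.96, 0.90 and 0.88, with exact permutation p of 0.0167, 0.0125 and 0.0278 and adjusted values of 0.0833, 0.0833 and 0.0926 over 10 relations.

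In the distal libraries none of these relations passed. There r was 0.03 for Malat1 and Neat1, 0.27 for Malat1 and Kcnq1ot1, and 0.25 for Neat1 and Kcnq1ot1 (n = 6, exact permutation, adjusted p = 0.951, 0.707 and 0.707). Gm26917 had r of -0.40 with Malat1, 0.60 with Neat1 and 0.06 with Kcnq1ot1 in distal libraries, and 0.53, 0.55 and 0.57 with them in control libraries, where adjusted p was 0.358 for each (exact permutation). The difference between regions in these correlations was not tested. The direction of several distal values rested on single libraries, as the closing values show.

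**Figure D5:**
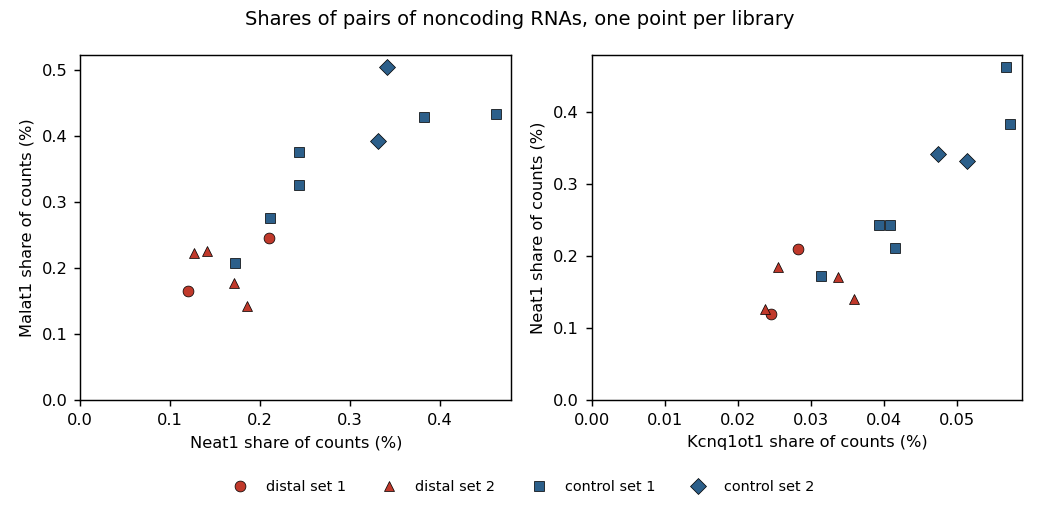
Shares of total counts (%) of 2 pairs of members, with each point a library, its colour the region and its shape the set. Control libraries line up for Malat1 with Neat1 (r = 0.88) and for Neat1 with Kcnq1ot1 (r = 0.95); distal libraries do not line up for either pair (r = 0.03 and 0.25).

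The genes most like each member were taken from 8639 genes with an average log2 CPM of at least 3, by the Pearson correlation of log2 CPM after the mean of each region was subtracted, over 14 libraries. This is a description, and the points share library, depth and base composition. For Malat1 they were Ttc14 (r = 0.86), Zzz3 (0.86) and Insr (0.85), which encodes the insulin receptor. For Neat1 they were Retreg3 (0.93), Gm49759 (0.90) and Vezt (0.89), which encodes an adherens junction protein. For Kcnq1ot1 they were Mllt6 (0.90), Srcap (0.88), which encodes a chromatin remodeller, and Mlh3 (0.86), which encodes a mismatch repair protein. For Gm26917 they were Emc10 (0.92), Plxnb2 (0.90) and Col7a1 (0.89), which encodes the anchoring fibril collagen of the skin, and all 3 have a GC content between 56.6 and 62.9%. The GC content of the genes most like Malat1 was 42.6 to 46.8%, and of those most like Neat1 48.0 to 53.1%. Those most like Kcnq1ot1, which itself has 40.3%, ranged from 44.3% in Mlh3 to 59.8% in Mllt6.

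Among genes for paraspeckle proteins and for nuclear speckle and splicing factors, more passed as lower than as higher in distal cells. This did not hold for genes for the 3′ end of Malat1, nor for paraspeckle proteins with the GC and length trend removed. Of all 11757 tested genes, 24.3% rose and 24.1% fell, 48.3% together, and the median log2 fold change was -0.16. Of 25 tested paraspeckle proteins, 2 rose and 13 fell, 60.0% together, and their median was -0.55. Nono and Sfpq encode partner proteins that bind Neat1 at the start of paraspeckle assembly. Nono fell to 208 ± 42.1 CPM in distal, against 349 ± 33.7 CPM in control libraries (-0.75 ± 0.14, adjusted p = 0.000253). Sfpq fell to 297 ± 180 CPM in distal, against 494 ± 108 CPM in control libraries (-0.73 ± 0.29, adjusted p = 0.0438). Matr3, a nuclear matrix protein that binds RNA (-1.40, adjusted p = 4.1e-05), and Nudt21, a 3′ end processing factor (-1.23, adjusted p = 0.000162), fell as well, and Smarca4, a chromatin remodelling ATPase, rose (1.02, adjusted p = 1.27e-05; edgeR throughout). With the GC and length trend removed, 4 of the 25 rose and 4 fell, 32.0% together beside 18.9% of all genes. Matr3 (-0.58) and Nono (-0.45, adjusted p = 0.0166) passed there, and Sfpq (-0.13, adjusted p = 0.727) and Nudt21 (-0.49, adjusted p = 0.0549) did not. With counts summed per set, Nono (-0.64, adjusted p = 0.0741) and Sfpq (-0.66, adjusted p = 0.141) lost their calls.

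Of 24 tested nuclear speckle and splicing factors, 2 rose and 13 fell, 62.5% together beside 48.3% of all genes, with a median of -0.55. Clk1, a kinase that phosphorylates splicing factors (-1.35, adjusted p = 5.58e-06), Sf3b1, a subunit of the U2 particle (-1.09, adjusted p = 4.05e-05), and Rbm39 (-1.04, adjusted p = 7.43e-05) fell, and U2af2, which binds the polypyrimidine tract, rose (1.31, adjusted p = 4.67e-05; edgeR). With the GC and length trend removed, 5 rose and 6 fell, 45.8% beside 18.9% of all genes. Clk1 (-0.45, adjusted p = 0.0225), Rbm39 (-0.50, adjusted p = 0.0058) and U2af2 (0.54, adjusted p = 0.0378) then kept their calls by edgeR. Sf3b1, at -0.14 (adjusted p = 0.501), lost its call. Of 11 tested genes for the 3′ end of Malat1, 4 rose and 1 fell, 45.5% together and so near the 48.3% of all genes, with a median of 0.16. Those that rose include the RNase P and MRP subunits Pop5 (1.41, adjusted p = 1.27e-05), Rpp21 (1.05, adjusted p = 9.67e-05) and Pop7 (0.93, adjusted p = 0.00186), and Mettl16, a methyltransferase that binds the Malat1 triple helix, fell (-0.67, adjusted p = 0.0135). With the trend removed, 1 of the 11, Pop5, passed (0.94, adjusted p = 0.000593), 9.09% beside 18.9% of all genes. Rpp21 was then at 0.10, Pop7 at -0.01 and Mettl16 at -0.22. Mettl16 also lost its call with counts summed per set (-0.58, adjusted p = 0.0901).

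Genes beside Malat1 and Neat1 on chromosome 19 were mostly higher in distal cells. Of 8 tested neighbours, 7 rose and 0 fell, 87.5% beside the 24.3% of all genes that rose, and the median was 1.29 (log2 fold change). Frmd8 rose to 39.9 ± 8.80 CPM in distal, against 18.1 ± 5.33 CPM in control libraries (1.13 ± 0.22, adjusted p = 0.000455). Ehbp1l1 (1.56, adjusted p = 3.55e-05) and the kinase gene Map3k11 (1.51, adjusted p = 8.16e-05) rose as well (edgeR). Frmd8, Ehbp1l1 and Map3k11 have GC contents of 58.4 to 60.3%, and with the trend removed 2 of the 8 passed, both higher, 25% beside 18.9% of all genes. Ehbp1l1 then kept its call (0.64, adjusted p = 0.0339, edgeR). Frmd8, at 0.09 (adjusted p = 0.791), and Map3k11, at 0.38 (adjusted p = 0.242), lost theirs.

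In the imprinted cluster of Kcnq1ot1, 11 of 20 genes were tested, of which 3 rose and 1 fell, 36.4% together beside 48.3% of all genes, with a median of 0.21. Kcnq1 itself had 38 counts in all distal and 12 in all control libraries and was not tested, and reads that cross the shared bases cannot be assigned without strand. Cdkn1c, the growth inhibitor that Kcnq1ot1 is known to silence on the paternal chromosome, was at 3.73 ± 3.42 CPM in distal and 3.71 ± 2.48 CPM in control libraries (0.01 ± 0.73, edgeR adjusted p = 0.996), with 1 to 27 counts per distal and 0 to 43 per control library. Tssc4 (1.51, adjusted p = 8.6e-05), Cd81, a tetraspanin (0.64, adjusted p = 0.00125), and Dhcr7, an enzyme of cholesterol synthesis (0.54, adjusted p = 0.0446), rose, and Tnfrsf22, a decoy receptor gene, fell (-0.58, adjusted p = 0.0282; edgeR). With counts summed per set, Tnfrsf22 was at -0.21 (adjusted p = 0.593), and 3 genes of the cluster rose and 0 fell. With the trend removed none of these 4 passed, and 0 genes of the cluster rose and 1 fell, 9.09% beside 18.9% of all genes; it was Osbpl5 (-0.81, adjusted p = 0.0162), which is named after its value was seen.

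Genes of RNA polymerase I and early ribosome assembly, set beside Gm26917, went both ways. Of 30 tested, 8 rose and 11 fell, 63.3% together beside 48.3% of all genes, with a median of -0.11. Rrp9 (1.58, adjusted p = 9.43e-06) and Cd3eap, a polymerase I subunit (1.31, adjusted p = 2.17e-05), rose, and Taf1d, a factor of the polymerase I promoter complex (-1.52, adjusted p = 1.8e-05), and Nop58, a protein of box C/D particles (-1.24, adjusted p = 2.57e-05), fell (edgeR). With the trend removed, 4 rose and 4 fell, 26.7% beside 18.9% of all genes. Rrp9 (0.58, adjusted p = 0.0213), Taf1d (-0.66, adjusted p = 0.00334) and Nop58 (-0.54, adjusted p = 0.00611) then kept their calls by edgeR. Cd3eap, at 0.39 (adjusted p = 0.149), lost its call.

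Of 38 other long noncoding RNAs, 32 were in the table, 17 could be tested, and 0 rose and 8 fell; the median was -0.80 (log2 fold change). The share that passed, 47.1%, was close to that of all genes (48.3%), of which 24.1% fell. Dleu2 fell to 10.5 ± 2.34 CPM in distal, against 32.6 ± 12.1 CPM in control libraries (-1.63, adjusted p = 0.000205). Lncpint fell to 10.5 ± 4.56 CPM in distal, against 29.1 ± 11.9 CPM in control libraries (-1.47, adjusted p = 0.000780). Pvt1 (-1.34, adjusted p = 0.00329) and Oip5os1 (-0.80, adjusted p = 0.00772), known in the literature as Cyrano, fell as well (edgeR). With counts summed per set, Oip5os1 lost its call (-0.60, adjusted p = 0.0769). With the trend removed 0 rose and 4 of 16 fell, 25% beside 18.9% of all genes, and Pvt1 was at -0.93 (adjusted p = 0.0522). Lncpint, at 50.4% GC, was then at -1.50 (adjusted p = 0.00199) and Dleu2 at -0.93 (adjusted p = 0.0290). The keratinocyte markers moved in both directions, with 6 of 13 tested higher and 4 lower in distal cells, 76.9% together beside 48.3% of all genes, and a median of -0.31. With the trend removed 1 rose and 3 fell, 30.8% beside 18.9% of all genes. Their part in the values of the noncoding RNAs was not tested.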

How the data were processed

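RNA from cultured mouse epidermal cells was measured in 14 libraries (6 distal, 8 control) prepared with Smart-seq2 and Nextera XT, per the labels' protocols. The authors deposited unnormalised counts, as whole numbers, with 1 row per gene symbol. Per the submitters' processing notes, HISAT2 and featureCounts were used with GRCm38/mm10; the strand setting, the treatment of multi-mapping reads and the annotation release are not given in the sources used here. The table holds 55228 symbols, 26607 with a count, and 2137934 to 7458872 counts per library.

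The members and lists were chosen with earlier results of these data known. Shares are counts over all counts of a library, with 95% Wilson intervals. Counts were tested with edgeR 4.0.16 in R 4.3.3 (TMM scaling, filterByExpr, two-sided robust quasi-likelihood F test, Benjamini-Hochberg adjustment over all 11757 tested genes, threshold 0.05). Each log2 fold change is distal minus control; its SE is the absolute log2 fold change over the square root of F. CPM use TMM-scaled totals, except that the marker sums and the bound for Gm42418 use all counts of a library without scaling. A model with 4 set terms gave the contrasts between sets. Correlations on log2 shares were tested, two-sided, over all pairings (SciPy 1.17.1). Positions, sequences, GC content and length came from GENCODE M21 on GRCm38. GC content and length trends were fitted with natural splines (4 degrees of freedom) and entered as offsets; DESeq2 1.42.0, other scalings, summed sets, a replicate block, thinned counts and leaving out libraries were further alternatives, and GC content alone, the longest transcript, the removal on summed sets or deeper libraries, and a block on numbers within sets were added after seeing the data. The code was tested on simulated data. Named genes are the members, up to 4 with the smallest p in each list, Kcnq1, Cdkn1c, Sfpq, Nono and Frmd8, and the 3 genes most like each member; exceptions are marked, and some genes that the rule names are not reported here.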

Additional observations from a re-analysis of the deposited data

How the results depend on the processing

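Over the 12 settings without GC removal, Malat1, Neat1, Kcnq1ot1 and Gm26917 kept their direction between regions, with log2 fold changes of -1.43 to -0.77, -1.34 to -0.91, -1.10 to -0.67 and 0.56 to 1.32; adjusted p reached at most 0.106, 0.0336 and 0.0932 for Malat1, Neat1 and Kcnq1ot1. Leaving out single libraries gave -1.19 to -0.92, -1.21 to -0.94, -0.94 to -0.73 and 0.96 to 1.29 and changed no call. With libraries over 4000000 counts only, Malat1 (-0.77), Kcnq1ot1 (-0.67) and Gm26917 (0.56) were closer to 0, and the first 2 lost their call; fewer libraries entered. Removing the GC and length trend gave -0.28 for Malat1, 0.064 for Kcnq1ot1 and 0.28 for Gm26917. The same 3 were at -0.17, 0.10 and 0.24 with GC content alone, at -0.21, 0.16 and -0.18 with the longest transcript, and at -0.26, 0.14 and 0.18 with summed sets. With libraries over 4000000 counts and the trend removed they were at -0.27, -0.34 and -0.10, and Neat1 at -1.29 without a call (adjusted p = 0.0852). The cause was not tested. The number of genes called was 5681 in edgeR, 6151 in DESeq2, 3582 with summed sets, 2208 with the GC and length trend removed and 2259 with GC content alone. Upper-quartile scaling moved the split to 3255 higher and 2202 lower, and library totals to 3359 and 2012, from 2853 and 2828, with a median log2 fold change of 0.00 and 0.05 in place of -0.16.

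The replicate block, on numbers from the titles, gave -0.96 for Malat1, -0.97 for Neat1, -0.81 for Kcnq1ot1 and 1.19 for Gm26917, with 5442 genes called; it changed no member's call. The correlation of same-numbered libraries was -0.02 to 0.11 over 6 pairs, and 2 of 6 distal libraries correlated best with their own number. These values do not decide whether same-numbered libraries share an animal or culture. Between the control sets, which share the numbers 1 and 2 in the sample descriptions, a replicate block on those numbers, added after seeing the data, gave 0.16 for Malat1, 0.095 for Neat1, 0.0080 for Kcnq1ot1 and 0.69 for Gm26917, with 0 genes called by edgeR and 796 at an unadjusted p under 0.05. Same-numbered control libraries correlated at -0.041 and -0.0032 after the mean of each set was subtracted. Control set 2 has 2 libraries, whose deviations then mirror each other, so these values cannot decide whether same-numbered libraries share an origin. No paired analysis was possible between the distal sets because they share 1 number, 3.

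Between sets, library totals gave -0.10 for Malat1 and -0.079 for Neat1 in distal cells, and GC removal gave -0.29 for Malat1 and -0.050 for Kcnq1ot1 in distal and -0.080 for Kcnq1ot1 in control cells. Leaving out single libraries gave, in distal cells, -0.29 to 0.28 for Malat1, -0.37 to 0.44 for Neat1, 0.12 to 0.34 for Kcnq1ot1 and -0.66 to -0.28 for Gm26917, and in control cells 0.22 to 0.67, 0.23 to 0.52, 0.17 to 0.32 and 0.21 to 0.91.

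For share against total, Spearman's rho was -0.94 for Gm26917 and -0.029 for Kcnq1ot1 in distal libraries, and -0.19 for Malat1 and -0.24 for Kcnq1ot1 in control libraries. Without the 2 libraries farthest from the median, r was -0.88 for Gm26917 in distal libraries and -0.72, -0.81 and 0.055 for Malat1, Kcnq1ot1 and Gm26917 in control libraries. Leaving out single libraries gave 0.28 to 0.97, -0.91 to -0.32, -0.0044 to 0.93 and -0.96 to -0.88 for Malat1, Neat1, Kcnq1ot1 and Gm26917 in distal libraries, and -0.73 to 0.30, -0.79 to 0.070, -0.81 to 0.20 and -0.43 to 0.39 in control libraries. Between members, leaving out the farthest 2 gave -0.94 for Malat1 with Neat1, 0.33 for Malat1 with Gm26917 and -0.67 for Kcnq1ot1 with Gm26917 (-0.21 on CPM) in distal libraries. In control libraries Malat1 with Neat1 (0.85), Malat1 with Kcnq1ot1 (0.60; rho 0.74) and Neat1 with Kcnq1ot1 (0.94; rho 0.86) lost their calls.

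With summed sets, 2 paraspeckle proteins rose and 4 fell, 2 speckle factors rose and 7 fell, 7 polymerase I and assembly genes rose and 5 fell, 5 keratinocyte markers rose and 1 fell, and 0 other noncoding RNAs rose and 6 fell. In the Kcnq1ot1 cluster 3 rose and 0 fell, and of the genes for the Malat1 3′ end 4 rose and 0 fell. DESeq2 lowered 3 of the 11 genes for the Malat1 3′ end, against 1 in edgeR.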
